A study of Mus musculus with 21 samples.

Results

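The TCF1 peaks described here are those of the early innate lymphoid progenitor (EILP) that overlap no DNase I hypersensitive site (DHS) of the same cells, of the stage before them or of the stage after them. They were chosen by position: a TCF1 peak on chromosomes 1 to 19 or X entered if it shared not even 1 bp with a DHS peak of the all-lymphoid progenitor (ALP), of EILP or of the innate lymphoid cell precursor (ILCP). The stretch of chromosome 11 from 52.06 to 52.11 Mb (build mm9), which holds 10 TCF1 peaks, 9 of them outside all DHS, was left out. This gave 2289 of 6669 TCF1 peaks, or 34.3% (95% Wilson interval 33.2 to 35.5), and the other 4380 overlapped at least 1 DHS. Because the DHS lists chose the peaks, the absence of open chromatin under them is no result.

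The cells were sorted from mouse bone marrow of strain C57BL/6. TCF1 binding was measured by CUT&RUN in EILP, the Tcf7+ Thy1- cells among Lin- Kit+ 2B4+ a4b7+ cells, from mice labelled Tcf7EGFPnull/+, with 500 fixed cells per library. There were 6 TCF1 libraries from 4 library numbers and 4 IgG libraries from 3 library numbers. Libraries that share a number are titled tech1 and tech2. DNase-seq had 3 libraries of 300 cells per stage: EILP as above, ILCP (Thy1+ and IL-7Ra+, from Tcf7EGFP/+ mice) and ALP (a4b7- Flt3high IL-7Ra+, also Tcf7EGFP/+). The EILP libraries carry WT in their source names as well, so the labels leave their genotype unclear. If the genotype field holds, stage and reporter allele cannot be told apart where EILP is set against another stage. For 2 further CUT&RUN libraries the labels conflict, TCF1 in one field and the IgG track in another. They were placed in no group, although the header of the TCF1 list counts their library number among the control tags.

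TCF1, encoded by Tcf7, is an HMG-box factor that bends DNA and acts downstream of Notch and Wnt signals in early lymphocytes. It is required for innate lymphoid cells to develop normally. In T cell development it has been described as binding sites in closed chromatin before they open, so TCF1 peaks with no DHS are of interest in a progenitor. A DHS marks DNA that nucleosomes leave accessible, most often an active promoter or enhancer. In CUT&RUN a nuclease tethered to the antibody cuts beside the bound protein.

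One TCF1 list and one DHS list per stage were analysed, each called on pooled tags. The values below therefore have no replicate error and no test over samples, and the intervals cover the counting of peaks only. The TCF1 list rests on 2418839 tags against 2919489 in the control, and the DHS lists on 11236009 to 12681410 tags. Peak height is the pileup, the number of tags, each extended to 100 bp, that cover the summit. Fold enrichment is the authors' ratio of pileup plus 1 to local background plus 1, and is the peak's own value within this list.

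TCF1 peaks outside all DHS were low peaks. Their pileup had a median of 4 tags and quartiles of 4 and 5, against a median of 6 and quartiles of 5 and 7 in TCF1 peaks inside DHS. They numbered 271 at 3 tags, 915 at 4, 806 at 5, 211 at 6, 62 at 7, 20 at 8, 3 at 9, 0 at 10 and 1 at 12 tags. Peaks of at least 6 tags were 297 of the 2289 (13.0%, 11.7 to 14.4), against 2324 of the 4380 inside DHS (53.1%, 51.6 to 54.5). Over all TCF1 peaks considered the share was 39.3%. Because the tags of all TCF1 libraries were pooled, the list does not show for any peak how many libraries contributed.

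Read the other way, the share of TCF1 peaks that lay outside all DHS fell with height. It was 61.3% (56.7 to 65.7) at 3 tags, 50.1% (47.8 to 52.4) at 4 and 45.3% (43.0 to 47.6) at 5. It was 22.1% (19.6 to 24.9) at 6 tags, 9.98% (7.87 to 12.6) at 7 and 5.15% (3.36 to 7.83) at 8. Of the 659 peaks with 9 tags or more, 4 lay outside, or 0.607% (0.236 to 1.55). At 10 tags 0 of 172 did, a Wilson upper bound of 2.18%.

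**Figure D1:**
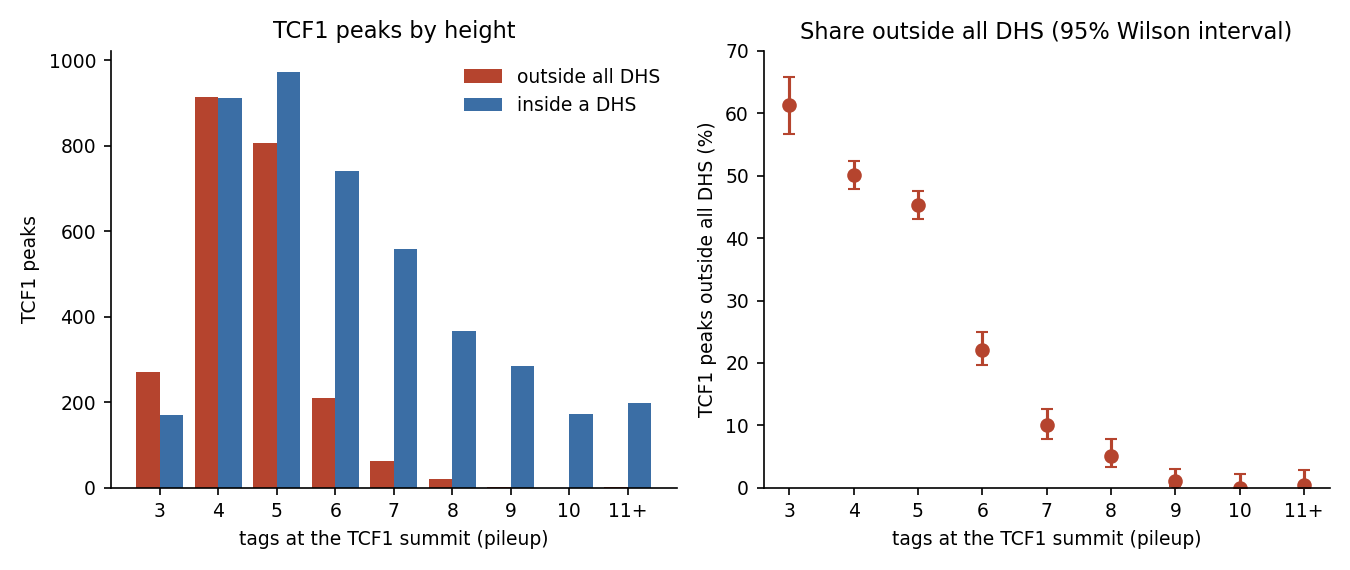
The left panel gives the number of TCF1 peaks (vertical axis) by tags at the summit (horizontal axis) outside all DHS and inside a DHS; the right panel gives the share outside all DHS with its 95% Wilson interval. The share is 61.3% at 3 tags and 5.15% at 8 tags, and beyond 8 tags 4 peaks in all lie outside.

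The peaks were also lower in fold enrichment. It had a median of 4.43 outside all DHS (quartiles 4.29 and 5.31) and 5.26 inside DHS (4.43 and 6.02). At the lowest background the list allows, 3, 4 and 5 tags give a fold of 3.54, 4.43 and 5.31, so many of these peaks share a few values. Among peaks of at least 6 tags the median fold was 6.00 outside all DHS and 6.01 inside, a difference of −0.0037. Height was not matched there, with a median pileup of 6 outside and 7 inside, and the median background was 0.166 outside and 0.331 inside. At the lowest background, 3 tags give a −log10 q of 1.56 and 5 tags one of 3.75. A q under 0.01 was reached by 1998 peaks outside all DHS (87.3%) and 4006 inside (91.5%), against 90.0% of all. The peaks were also short: 1544 outside all DHS (67.5%, 65.5 to 69.3) had the shortest length in the list, 100 bp, as did 1286 inside (29.4%, 28.0 to 30.7), against 42.4% of all. That length is the length of 1 extended tag.

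The local background reflects the control tags near each peak, with the genome-wide mean as its lowest value. It took a lowest value of 0.129 tags, the genome-wide mean, in 1999 of the 6669 peaks. In the other 4670 it was, within a tolerance of 0.05 tags, a whole number of steps of 0.00829, the value of 1 scaled control tag in the 10 kb window. On the same scale 1 control tag in the 1 kb window counts as 0.0829 and 1 over the summit itself as 0.829. Both are whole multiples of the 10 kb step, so a whole number of steps does not show which window set the background. A background of 0.166, the upper quartile of the peaks outside all DHS, is what 2 control tags in 1 kb or 20 in 10 kb give.

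Control signal was scarce at TCF1 peaks outside all DHS. The lowest background was found in 885 of them (38.7%, 36.7 to 40.7), in 1114 of those inside DHS (25.4%, 24.2 to 26.7) and in 30.0% of all. A background of at least 0.829, the level of 1 control tag over the summit, was found in 13 outside all DHS (0.568%, 0.332 to 0.969). Inside DHS it was found in 772 (17.6%, 16.5 to 18.8), against 11.8% of all. Because 100 control tags in 10 kb give the same level, it does not show that a control tag covered the summit. The highest background was 0.829 outside all DHS and 16.6 inside, where 184 peaks exceeded 0.829. The part of the 2 libraries with conflicting labels in this background was not tested.

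Part of this contrast is fixed by height, because a peak with a background of at least 0.829 was listed only from 6 tags upward. Among peaks of 3 to 5 tags the lowest value was about as frequent outside all DHS (40.8% of 1992) as inside (39.6% of 2056). A background of 0.2 to 0.4 was less frequent outside, in 66 peaks (3.31%) against 160 inside (7.78%). In that class 29.2% of peaks (23.7 to 35.4) lay outside all DHS, against 49.9% (47.5 to 52.4) at the lowest background. Height was not matched within 3 to 5 tags. A background of 0.2 to 0.4 was listed only from 4 tags upward, and 271 peaks outside and 171 inside had 3 tags. The part of height in this difference was not tested. The contrast was also present at equal height from 6 to 8 tags. At 6 tags, 3 of 211 outside all DHS (1.42%) and 94 of 742 inside (12.7%) had a background of at least 0.829. At 7 tags the counts were 5 of 62 (8.06%) and 140 of 559. At 8 tags they were 5 of 20 and 141 of 368 (38.3%), with few peaks outside behind the value.

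**Figure D2:**
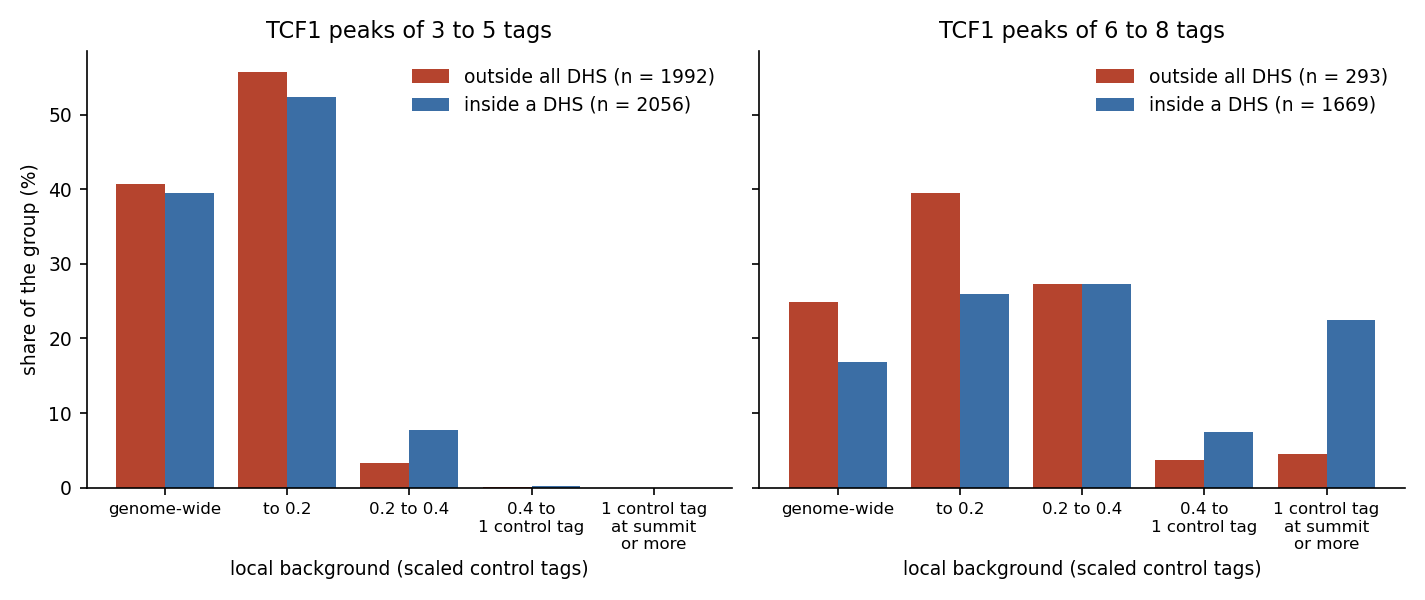
The share of TCF1 peaks (vertical axis) in each class of local background (horizontal axis, in scaled control tags) is shown for peaks of 3 to 5 tags (left) and 6 to 8 tags (right), outside all DHS and inside a DHS. At 6 to 8 tags a background of at least 0.829, the level of 1 control tag over the summit, is found in 4.44% of 293 peaks outside. Inside it is found in 22.5% of 1669.

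Most TCF1 peaks outside all DHS lay close to open chromatin. The gap from peak edge to DHS edge had a median of 716 bp to the nearest DHS of any stage, with quartiles of 251 and 2272 bp. Of the 2289, 290 (12.7%) lay within 100 bp of a DHS, 956 (41.8%) within 500 bp, 1334 (58.3%, 56.2 to 60.3) within 1 kb and 1995 (87.2%) within 5 kb. A gap of at least 50 kb was found for 26 peaks (1.14%) and one of at least 500 kb for 5. The gap depends on how much of each DHS list is used: with only the DHS whose fold was at or above the median of their list, 47.2% of TCF1 peaks were outside, at a median of 1773 bp.

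By stage, the median gap was 1271 bp to ALP DHS (95% order-statistic interval 1141 to 1429), 1034 bp to EILP DHS (945 to 1153) and 986 bp to ILCP DHS (922 to 1074). Within 1 kb there was an ALP DHS for 1030 peaks (45.0%, 43.0 to 47.0), an EILP DHS for 1134 (49.5%, 47.5 to 51.6) and an ILCP DHS for 1154 (50.4%, 48.4 to 52.5). The lists differ in length in the same order, with 66449 ALP, 70040 EILP and 71916 ILCP peaks on these chromosomes, and the part of list length in these gaps was not tested.

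**Figure D3:**
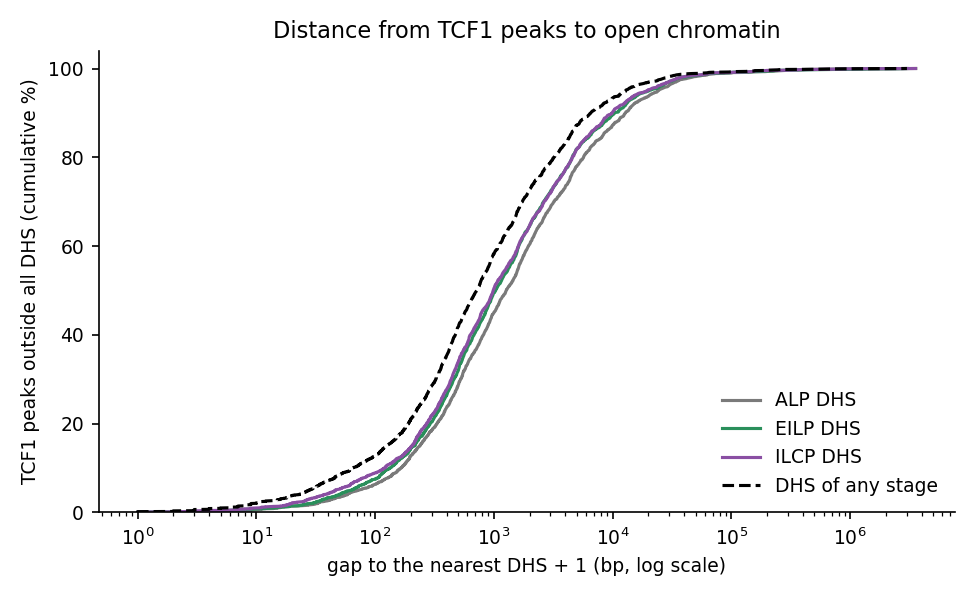
The cumulative share of the 2289 TCF1 peaks outside all DHS (vertical axis) is plotted against the gap to the nearest DHS plus 1 bp (horizontal axis, log scale), for each stage and for any stage. The curves of the 3 stages nearly coincide, ALP lying to the right, and 87.2% of the peaks have a DHS of some stage within 5 kb.

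TCF1 peaks inside DHS had a further DHS close by less often. Taking for each the nearest DHS region it did not itself overlap, 1654 of 4380 (37.8%, 36.3 to 39.2) had one within 1 kb, against the 58.3% of peaks outside all DHS, and over all TCF1 peaks the share was 44.8%. The median gap was 716 bp for peaks outside all DHS and 1878 bp to the further DHS for those inside. A peak inside has the rest of its own DHS to cross first, so the gaps are not measured over like ground. A DHS on both sides within 1 kb was found for 214 peaks outside all DHS (9.35%, 8.22 to 10.6) and for 150 inside (3.42%, 2.93 to 4.01). At 50 kb the groups were close: 2263 outside (98.9%) and 4363 inside (99.6%) had a DHS that they did not overlap.

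The profile of DHS around the summit shows the same neighbourhood. It is 0 at the summit by the choice of the peaks. Outside all DHS, an EILP DHS covered the position 500 bp away in 8.65% of peaks, 1 kb away in 6.84% and 2 kb away in 3.30%, as the mean of both sides, and the highest point on either side was 9.96% at 550 bp, where the other side had 8.43%. Around TCF1 peaks inside DHS, the EILP values were 6.22%, 3.22% and 1.83% at the same distances. The highest points for the other stages, around peaks outside all DHS, were 8.74% for ALP and 10.1% for ILCP, both at 600 bp.

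**Figure D4:**
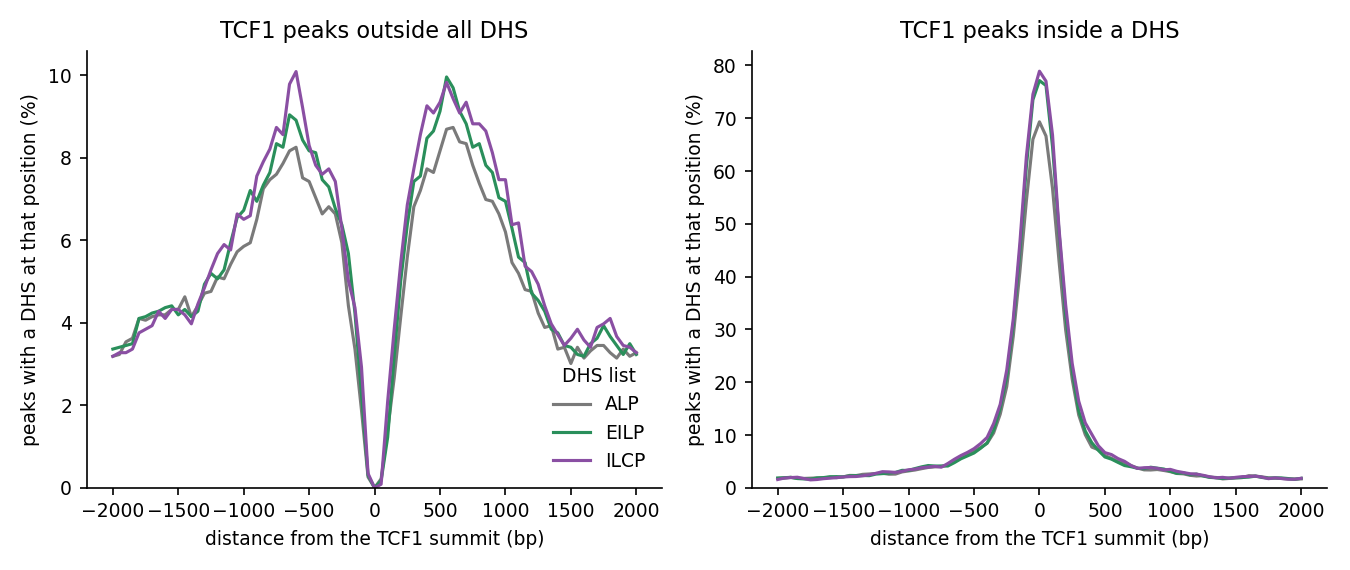
The share of TCF1 peaks with a DHS at a given position (vertical axis, scaled separately in each panel) is plotted against the distance of that position from the TCF1 summit in bp, for the DHS of ALP, EILP and ILCP. Outside all DHS (left) the curves are 0 at the summit by selection and highest at 550 to 600 bp; inside a DHS (right) the EILP curve is 77.1% at the summit.

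Higher peaks lay nearer to a DHS. The median gap was 881 bp for the 271 peaks of 3 tags, 829 bp at 4 tags, 758 bp at 5 tags, 438 bp at 6 tags and 259 bp for the 86 peaks of 7 tags or more. The share within 1 kb was 55.4% (49.4 to 61.2) at 3 tags, 75.4% (69.1 to 80.7) at 6 and 83.7% (74.5 to 90.0) at 7 or more. From 3 to 5 tags the intervals overlapped, with 54.9% at 4 tags and 56.0% (52.5 to 59.3) at 5. Background went with distance as well. The lowest background was found in 33.4% of the 290 peaks within 100 bp of a DHS, in 38.0% of the 661 between 1 and 5 kb and in 63.8% of the 268 between 5 and 50 kb. Peaks of at least 6 tags made up 19.3%, 7.11% and 6.34% of these classes.

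Most of the peaks with a DHS close by had one of each stage. Of the 1334 peaks with a DHS within 1 kb, 857 (64.2%, 61.6 to 66.8) had one in all 3 stages. Each stage was counted separately, so the 3 DHS need not be the same region. The same classes were not counted for TCF1 peaks inside DHS. In 155 (11.6%, 10.0 to 13.5) the neighbouring DHS were those of EILP and ILCP and not ALP, and in 75 (5.62%, 4.51 to 6.99) those of ALP and EILP and not ILCP. A neighbour in a single stage was found for 58 peaks in ALP (4.35%), 47 in EILP (3.52%) and 102 in ILCP (7.65%). These classes give where TCF1 sits in EILP beside DHS listed at other stages; with 1 pooled list per stage, absence from a list depends on its threshold.

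With the DHS of the 3 stages merged wherever they shared 1 bp, the nearest regions of those 1334 peaks were 1305 different regions. Of these, 722 (55.3%, 52.6 to 58.0) were open in all 3 stages, against 73.2% of the 4258 regions that themselves overlapped a TCF1 peak and 39.0% of all 102313 regions. Regions of ALP alone were 94 (7.20%), against 2.04% and 11.3%. Regions of EILP and ILCP without ALP were 157 (12.0%, 10.4 to 13.9), against 11.2% and 9.27%. In strength, the neighbouring EILP DHS ranked between those that overlapped a TCF1 peak and the whole EILP list. The nearest EILP DHS within 1 kb had a median fold enrichment of 8.02. It was 9.69 for EILP DHS that overlapped a TCF1 peak and 6.87 for the whole list.

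A minority of these peaks lay beside a DHS that TCF1 itself occupied, though such DHS were more frequent there than over all regions. In 201 of the 1334 (15.1%, 13.2 to 17.1) the nearest region itself overlapped a TCF1 peak, and in the others it held none. Counted by region, 195 of the 1305 neighbouring regions (14.9%, 13.1 to 17.0) overlapped a TCF1 peak, against 4.16% of all regions. The neighbouring regions were longer, with a median of 277 bp against 211 bp over all regions, and how much of the difference goes with length was not tested.

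The strongest peak outside all DHS lay on chromosome 15 at 96116695 to 96116845 (positions here are those of build mm9). It had 12 tags, a fold enrichment of 10.4 and a background of 0.249, with a DHS 262 bp away in ALP, 236 bp in EILP and 231 bp in ILCP. The next TCF1 peak was 411 bp away. It is the one peak outside all DHS with more than 9 tags, and its neighbouring DHS was found at a similar gap in each stage.

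The second, on chromosome 11 at 5049000 to 5049130, had 9 tags and a fold enrichment of 8.70. Its nearest DHS was in ILCP, 293 bp away with a pileup of 10 tags, while the nearest in ALP and EILP lay 1412 and 1713 bp away. TCF1 at this place in EILP was thus beside a DHS listed within 1 kb at the later stage only. That ILCP DHS was weak, with a fold of 3.43 against a lower quartile of 5.28 in the ILCP list. The third, on chromosome 4 at 134478881 to 134479017, also had 9 tags, a fold enrichment of 8.01, and a DHS 305 to 334 bp away in each stage.

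The peak on chromosome 7 at 53027427 to 53027559, with 8 tags, a fold enrichment of 7.97 and the lowest background, showed another stage pattern. A DHS lay 582 bp away in EILP (pileup 23) and 479 bp away in ILCP (pileup 29), and the nearest in ALP lay 6915 bp away. The peak on chromosome 4 at 111112363 to 111112476 had the same tags, fold and background, with a DHS 427 to 537 bp away in every stage. No other TCF1 peak lay within 2352018 bp of it.

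The other 5 of the 10 strongest had 8 tags each and a fold enrichment of 7.72 to 7.89. They lay on chromosome 11 at 77331612 to 77331871, chromosome 1 at 135056232 to 135056340, chromosome 2 at 173174405 to 173174504, chromosome 8 at 122893181 to 122893484 and chromosome 9 at 25289581 to 25289725. The smallest gap among them was 42 bp, to an ILCP DHS on chromosome 1, and the largest gap to the nearest stage was 765 bp, on chromosome 11. Thus each of the 10 lay within 1 kb of a DHS of some stage. By pileup alone the first 5 included one more peak, on chromosome 8 at 87499755 to 87499854, with 9 tags over a background of 0.414 and a fold of 7.07.

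**Figure D5:**
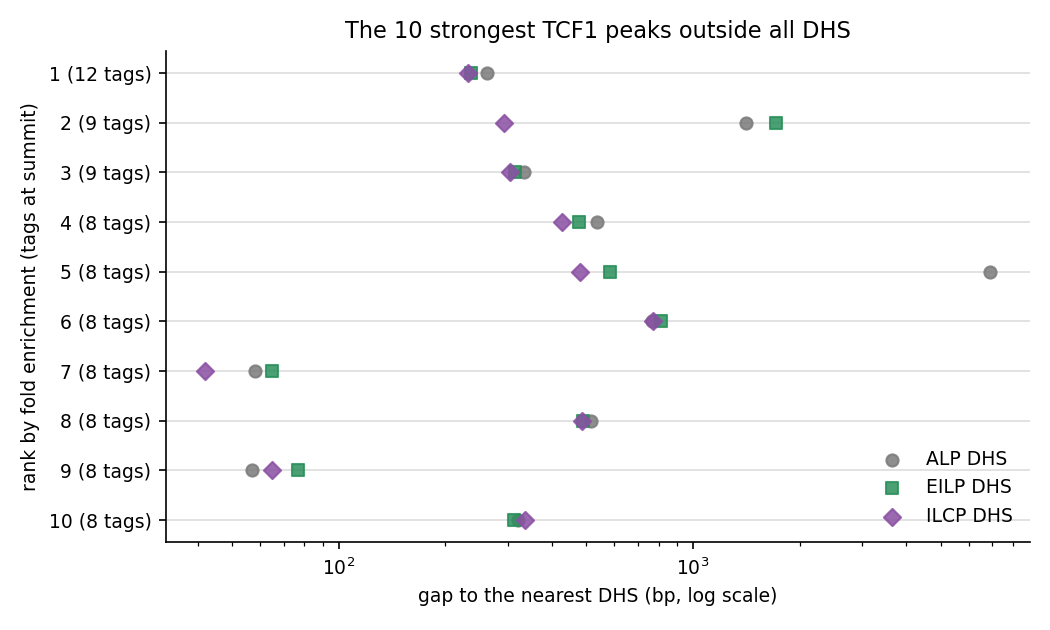
For the 10 TCF1 peaks outside all DHS with the highest fold enrichment (vertical axis, by rank, with tags at the summit), the gap in bp to the nearest DHS of each stage is shown on a log scale. The gaps of the 3 stages nearly coincide in most; rank 2 has its nearest DHS in ILCP at 293 bp, and rank 5 has none in ALP within 6915 bp.

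The peaks with most control signal all had a background of 0.829, which 1 control tag over the summit or 100 in 10 kb would give. The first 5 by the order used had 8 tags and a fold enrichment of 4.92. They lay on chromosome 1 at 52065764 to 52065881, chromosome 2 at 130004357 to 130004456 and at 167758483 to 167758588, chromosome 3 at 130910980 to 130911102 and chromosome 14 at 75300571 to 75300670. The first 4 lay 101 to 546 bp from a DHS and the last 5239 bp.

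The peaks far from any DHS were low, short and mostly at the lowest background. Of the 26 with no DHS of any stage within 50 kb, 24 were 100 bp long and 21 had the lowest background; their pileup ran from 3 to 7 tags with a median of 4.5, and they were spread over 17 chromosomes. The farthest lay on chromosome X at 61987536 to 61987635, with 4 tags and a gap of 3011695 bp to an EILP DHS. The next were on chromosome 8 at 30809519 to 30809618 (5 tags, gap 1141078 bp), chromosome 4 at 51125167 to 51125266 (4 tags, 742618 bp), chromosome 15 at 16206689 to 16206788 (4 tags, 604267 bp) and chromosome 19 at 39797744 to 39797843 (5 tags, 502183 bp). By fold enrichment the first of the 26 was on chromosome 5 at 126553328 to 126553427, with 6 tags, a fold of 6.00 and a gap of 272574 bp. The following 4 had 5 tags and a fold of 5.31: the chromosome 8 peak just named, and peaks on chromosome 2 at 116395440 to 116395539, chromosome 9 at 6865630 to 6865729 and chromosome 10 at 23453529 to 23453628. The last of these lay 53275 bp from an EILP DHS with a pileup of 40 tags and a fold of 15.7.

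Most of the peaks stood alone. With gaps under 5 kb joined, 2066 were single, 89 pairs, 11 groups of 3 and 3 groups of 4 were found, so that 223 peaks (9.74%) had another one of their kind nearby. The count depends on the gap allowed: it was 54 (2.36%) with gaps under 500 bp and 715 (31.2%) with gaps under 50 kb. Among the more numerous peaks inside DHS, 726 of 4380 (16.6%, 15.5 to 17.7) had another inside peak within 5 kb. Another TCF1 peak of any kind lay within 5 kb of 597 peaks outside all DHS (26.1%, 24.3 to 27.9) and of 1074 inside (24.5%, 23.3 to 25.8), against 25.1% of all. The intervals at 5 kb overlap. At shorter gaps the share was lower outside all DHS, and no test was made. Both peaks of a close pair are counted, and peaks that share a DHS all count as inside. Within 500 bp another TCF1 peak was found for 195 peaks outside all DHS (8.52%, 7.44 to 9.73) and 511 inside (11.7%, 10.7 to 12.7). Within 1 kb the counts were 295 outside (12.9%, 11.6 to 14.3) and 675 inside (15.4%, 14.4 to 16.5).

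The groups of 4 lay on chromosome 15 at 98606842 to 98610538, chromosome 6 at 72907127 to 72911721 and chromosome 15 at 102182549 to 102188524. The first held peaks of 4, 7, 3 and 5 tags, all at the lowest background, and 1 further TCF1 peak inside a DHS. The second held peaks of 6, 4, 7 and 3 tags, each 171 to 558 bp from the nearest DHS. It spanned 4595 bp with 1 DHS of each stage and no TCF1 peak inside a DHS. The third held peaks of 4 or 5 tags, and one of them, at 102186383 to 102186482, had a DHS 3 bp away in ILCP, 329 bp away in EILP and 2300 bp away in ALP. The next in order were groups of 3 on chromosome 11 at 77326923 to 77331871 (5, 4 and 8 tags) and chromosome 18 at 35759697 to 35761357 (5, 5 and 7 tags). In the chromosome 18 group the gaps to the nearest DHS of any stage ran from 708 to 2077 bp, and no DHS of any stage lay between the peaks.

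By 1 Mb windows, the highest numbers were 15 of 27 TCF1 peaks outside all DHS on chromosome 4 from 134000001, 11 of 21 on chromosome 17 from 28000001 and 10 of 22 on chromosome 7 from 31000001. These windows were dense in open chromatin, with 125, 102 and 114 EILP DHS. The median over the 1048 windows that held any such peak was 2.

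At the boundary of the rule the peaks on both sides were alike in height. The 49 peaks with a gap under 10 bp had a median pileup of 5 tags and a median fold of 5.15, and the 52 with an overlap of 1 to 10 bp had 5 tags and 4.62. The median fold was thus higher outside at the boundary, the reverse of the whole sets. Fold takes few values at these heights, so a few peaks can shift its median, and no interval was computed. In a wider pair, the 290 peaks with a gap under 100 bp had a median fold of 5.00. The 303 with an overlap under 50 bp had 4.43. The smallest gap was 0 bp, where peak and DHS abut, in 4 peaks. Those named first lay on chromosome 3 at 135356006 to 135356107 (6 tags), chromosome 12 at 100879036 to 100879144 (5 tags) and chromosome 4 at 138908090 to 138908189 (4 tags). Just across the rule, with an overlap of 1 bp, were 7 peaks, among them those on chromosome 4 at 8960191 to 8960339 (5 tags), chromosome 3 at 107649399 to 107649498 (5 tags) and chromosome 14 at 122327889 to 122327988 (6 tags).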

How the data were processed

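All 4 files are peak lists called on pooled tags. Per the file headers, the authors used MACS version 2.1.1.20160309 with a q cutoff of 0.05, 1 tag kept per position and an extension of 100 bp. The DHS lists had no control, and the TCF1 list had a pooled control with windows of 1 to 10 kb for the background. That control counts the library number of the 2 libraries with conflicting labels along with IgG, so it may not be IgG alone. Positions are in mm9, per the submitters' processing notes; the aligner is not given in the sources used here. The deposited pileup is a signal in tags. The deposited fold enrichment is a ratio with a pseudocount of 1. Each peak also has a deposited −log10 q-value. Peak length and summit position are in bp, as deposited.

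From these, overlaps, edge-to-edge gaps and local backgrounds, (pileup + 1) / fold − 1, were computed with Python 3.11.15, pandas 2.3.3 and scipy 1.17.1, and 7 checks on made-up lists with known answers passed. No test over samples was possible and none was made over peaks. Named peaks were the 10 highest by fold, 5 each by pileup, background, distance and fold beyond 50 kb, the 5 richest groups (gaps under 5 kb), the 3 richest windows and 3 on each side of the rule, ties going by q and position. Peaks, rules and named sets were chosen with earlier results of these data known. Genes, motifs and sequences at the peaks, and marker genes of the sorted cells, were not analysed here, because no mm9 genome or annotation was used.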

Additional observations from a re-analysis of the deposited data

How the results depend on the processing

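No paired analysis was possible because each list pools its libraries, and no replicate could be left out. The planned motif count was not run, since no mm9 sequence was used here. Of 94 alternative values, 52 were scored as unmoved and 42 as moved, and none changed sign. Unmoved meant within the interval of the reported value or, for counts, within 1.5 times. The share with a background of at least 0.829 was scored by closeness, without an interval. Outside minus inside, it was −17.1 percentage points and, at 6 to 8 tags, −18.0, scored as unmoved. Settings that leave the sets nearly as they are (autosomes only, the chromosome 11 stretch kept, and, chosen after seeing the data, removal of the 3 richest windows) moved no result.

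Values follow in the order share outside all DHS, median fold outside minus inside, median gap and share within 1 kb (reported: 34.3%, −0.83, 716 bp and 58.3%). With the summit as the unit they were 40.4%, −0.83, 550.5 bp and 63.2%. With a gap of at least 100 bp required they were 30.0%, −0.76, 934 bp and 52.2%. With 500 bp required they were 20.0%, −0.72, 1814 bp and 28.4%, for 1333 peaks. Against the EILP list alone they were 42.4%, −0.83, 978 bp and 50.6%, and against the DHS with a fold at or above the median of their list 47.2%, −0.52, 1773 bp and 38.8%. At a TCF1 q under 0.01 the fold difference was −0.27. At q under 0.001 the values were 28.1%, −0.69, 641 bp and 60.5%, for 1035 peaks. With at least 6 tags they were 11.3%, −0.0037, 375 bp and 77.8%, for 297 peaks. With TCF1 peaks under 500 bp apart as 1 site, the gap was 782 bp and the share within 1 kb 56.2%. With the background within 10% of the lowest the values were 45.5%, −0.89, 984.5 bp and 50.5%, for 1122 peaks. Rules on overlap, gap and DHS list move the gap by their construction.

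Of the TCF1 list, 60.7% had 5 tags or fewer. Pooling hides how many libraries contributed to a peak of any height.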

Other observations

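Every chromosome considered held TCF1 peaks outside all DHS, at a share that differed between the extremes. It was highest on chromosome 4, at 166 of 426 TCF1 peaks (39.0%, 34.5 to 43.7), and lowest on chromosome 8, at 107 of 368 (29.1%, 24.7 to 33.9), and these intervals do not overlap. The 2 were picked as the extremes of 20 chromosomes, and no test was made. Chromosome X held 67 TCF1 peaks, 20 of them outside all DHS (29.9%, 20.2 to 41.7), an interval that overlaps those of chromosomes 4 and 8.

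Along the genome, TCF1 peaks outside and inside DHS were both concentrated in DHS-rich windows. Windows of 1 Mb with an EILP DHS were ranked by their number of EILP DHS and cut into 5 near-equal groups. The richest 447, of 53 to 154 DHS each, held 1258 peaks outside all DHS, or 55.2% of those in these windows, 57.6% of the peaks inside DHS and 46.3% of the EILP DHS. The poorest 447, with 1 to 7 DHS per window, held 23 peaks outside all DHS and 36 inside. The share outside all DHS was 33.3% in the richest group and 39.0% in the poorest, where it rests on few peaks. Over the 2233 windows, the rank correlation with the number of EILP DHS was 0.679 for peaks outside all DHS and 0.802 for peaks inside. The windows share the libraries, and peaks outside are fewer per window.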
